A study of Homo sapiens with 4 samples.

Results

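The Krueppel-like factor (KLF) genes encode transcription factors that bind GC-rich and CACCC-type DNA through C2H2 zinc fingers at their carboxyl ends. The 10 genes described here, KLF2, KLF3, KLF4, KLF5, KLF6, KLF7, KLF9, KLF10, KLF11 and KLF13, were the rows of the deposited table that carry these gene names, among 38558 genes in all. They are not the whole family: KLF12 and KLF16, which were also expressed, are given below with the other KLF genes. The family column of the deposited table puts all 10 in the C2H2 zinc finger class. They lie on 8 chromosomes, in GRCh38 coordinates. KLF2 is on chromosome 19 (16324826 to 16328685, plus strand), KLF3 on 4 (38664197 to 38701517, plus), KLF4 on 9 (107484852 to 107489766, minus), KLF5 on 13 (73054976 to 73077538, plus) and KLF6 on 10 (3775996 to 3785209, minus). KLF7 is on chromosome 2 (207074137 to 207167246, minus strand), KLF9 on 9 (70384604 to 70414657, minus), KLF10 on 8 (102648784 to 102655725, minus), KLF11 on 2 (10042849 to 10054836, plus) and KLF13 on 15 (31326835 to 31435586, plus).

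RNA was sequenced from SKOV3 and ES2, established human ovarian cancer cell lines that the labels describe as wild type and epithelial. The 4 groups were ES2 control, ES2 with YY-15, SKOV3 control and SKOV3 with YY-15. Control cells received no drug, treated cells received YY-15 for 48 h, and a dose of 4 µM stands in the column headings of the treated libraries alone. The time of 48 h is likewise given for the treated samples alone. YY-15 is a compound that the labels give by code name. Whether a library came from 1 culture or more is not stated in the sources used here. Each group held 1 library, so no difference below has a replicate check, a test or a p-value, and each compares 2 libraries.

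Estimated counts summed to between 62522202 and 67431058 per library, and the 10 KLF genes had between 179 and 20162 estimated counts each. The labels' epithelial description was checked against 7 epithelial markers: EPCAM and CDH1 were listed at 0 FPKM in both ES2 libraries and at 0.207 to 1.15 FPKM in SKOV3, while KRT7 and KRT18 were at 97.7 to 153.5 FPKM in all 4 libraries. The 7 epithelial markers summed to 527 FPKM in SKOV3 control, 354.2 in SKOV3 YY-15, 226.6 in ES2 control and 233.1 with YY-15 in ES2, with 5, 6, 3 and 3 of the 7 at 1 FPKM or more. The 4 mesenchymal markers, led by VIM, summed to 979, 1128, 1366 and 1335 FPKM in the same order. Within both sums, single markers moved in both directions between SKOV3 control and SKOV3 YY-15. VIM was lower with YY-15 (782.4 against 753.9 FPKM), while FN1 (169.9 against 342.4), CDH2 and ZEB1 were higher. KRT7, KRT8, KRT18 and KRT19 were lower with YY-15, most of all KRT8, while EPCAM, CDH1 and CLDN4 were higher. The part of these markers in the results below was not tested. Of 5 ovarian carcinoma markers, PAX8 (37.5 and 43.8 FPKM) and SOX17 (10.2 and 14.5 FPKM) passed 1 FPKM in the SKOV3 libraries and none did in ES2. The 3 blood markers in the table summed to at most 0.152 FPKM in any library. Of the 3 endothelial markers, CDH5 stood at 19.5 and 16.3 FPKM in ES2, and PECAM1 and VWF were below 0.1 FPKM in all 4 libraries. In such bulk RNA, fewer cells of a type and less RNA per cell cannot be told apart.

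KLF proteins share their DNA-binding end and differ in the partners recruited by the rest of the protein. KLF2, KLF4, KLF5, KLF6 and KLF7 act mainly as activators, although KLF4 also represses many genes. KLF3 is a repressor that recruits CtBP, and KLF9, KLF10, KLF11 and KLF13 bind the SIN3A corepressor. Several KLF genes are transiently induced by growth factors, serum, stress or hormones, and members of the family have been described as both brakes and drivers of epithelial cell proliferation.

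YY-15 was compared with control in SKOV3 to learn how the drug changed expression. With YY-15, all 10 KLF genes had a higher level in SKOV3 than without it, by between 1.19-fold for KLF13 and 5.96-fold for KLF4 in FPKM (fragments per kilobase of transcript, a level set per length and per library). Their summed level was 97.6 FPKM in the control and 171.2 in the YY-15 library. In ES2 the same sum was 57.9 FPKM in the control and 58.6 with YY-15. The differences are given below as log2((YY-15 FPKM + 1)/(control FPKM + 1)), computed where a gene reached an FPKM of 1 in either library. The bracketed ranges are exact 95% intervals for the same ratio taken from estimated counts per library total, with no pseudocount. They hold counting error and nothing of how cultures vary. The pseudocount of 1 pulls the ratios of low genes towards 0, so a ratio can lie outside its interval.

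On this scale KLF4 and KLF10 were at least 2-fold higher in SKOV3 YY-15, 2 of 10, beside 1.66% of the 13294 genes past the filter. The KLF median was 0.69, against 0.02 over all these genes. Ratios were above 0 for 10 of 10 KLF genes and for 52.7% of all genes. All 10 count intervals lay above 0, as did those of 42.6% of all genes past the filter. By FPKM without a pseudocount, KLF5 and KLF9 also passed 2-fold, which made 4 of 10, beside 4.67% of all genes. The genes were chosen with earlier results of these data known, so these counts describe the libraries and give no test of the family.

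**Figure D1:**
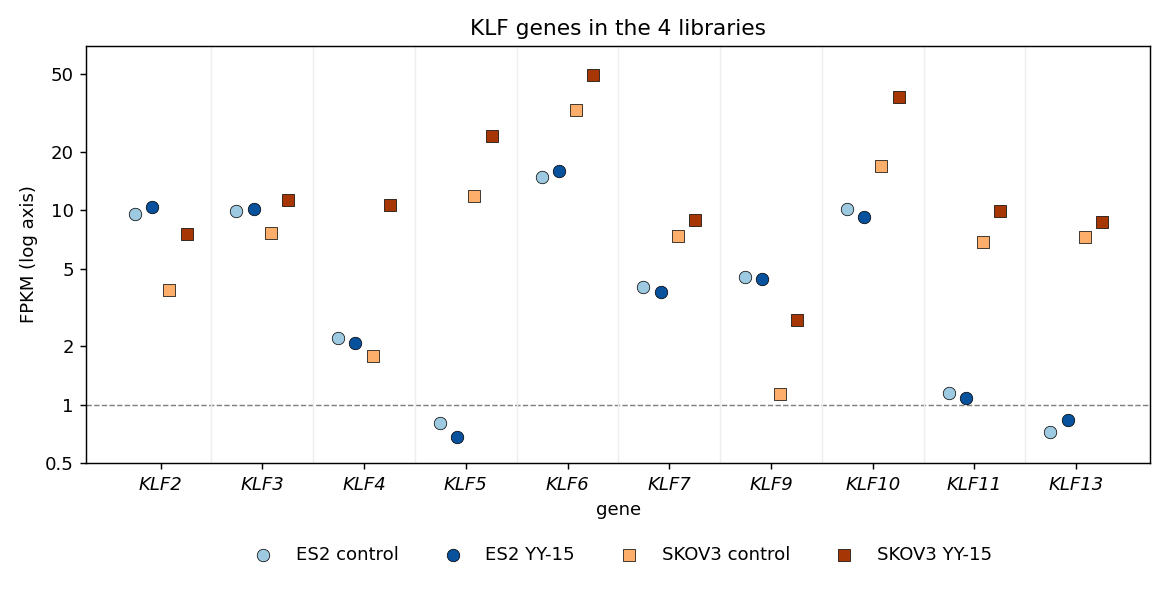
FPKM of the 10 KLF genes in the 4 libraries on a log axis (circles ES2, squares SKOV3, darker fill YY-15; 1 library per point, dashed line at 1 FPKM). The SKOV3 YY-15 square lies above the SKOV3 control square for every gene, most for KLF4 (1.78 against 10.6 FPKM), while the circles of a gene lie close together.

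KLF4, a regulator of epithelial differentiation and growth arrest and one of the reprogramming factors, had the largest difference of the 10. It stood at 1.78 FPKM in SKOV3 control and 10.6 with YY-15 in SKOV3, and at 2.21 in ES2 control and 2.09 with YY-15 in ES2. The treated SKOV3 library alone was high, and the other 3 lay between 1.78 and 2.21 FPKM. The log2 ratio was 2.06 [2.43 to 2.72] in SKOV3, where 29 of 13294 genes had a higher one, and -0.06 [-0.26 to 0.09] in ES2. An unnamed gene on the opposite strand, ENSG00000289987, overlaps it and had 0 estimated counts in SKOV3 control and 25 with YY-15 in SKOV3, beside 469 and 2591 for KLF4. Whether counting used strand is not stated in the sources used here, so reads of such opposite partners, which KLF3, KLF7 and KLF11 also have, cannot be told apart from those of the gene.

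Promoter windows, the 250 bases before each RefSeq gene start on GRCh38.p14, were found for 8 of the 10 genes, with KLF3 and KLF10 the exceptions. Those of KLF4, KLF2 and KLF9 are printed 5′ to 3′ on the strand of the gene, because KLF4 had the largest difference, KLF2 holds the rarest of the motifs found in these 3, and KLF9 holds none of those named below. Capitals mark GGGCGG (the GC box) in KLF4 and KLF2, TGACG (the core of a cyclic AMP response element) in KLF4 and the MEF2 motif in KLF2, each on either strand.
KLF4, chr9:107489770-107490019, minus strand: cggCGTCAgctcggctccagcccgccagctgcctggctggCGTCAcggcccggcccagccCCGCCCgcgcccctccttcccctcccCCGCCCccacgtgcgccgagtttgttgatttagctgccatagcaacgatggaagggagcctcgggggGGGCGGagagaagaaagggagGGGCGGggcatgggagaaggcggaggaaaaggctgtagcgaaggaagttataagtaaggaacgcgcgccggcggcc
KLF2, chr19:16324576-16324825, plus strand: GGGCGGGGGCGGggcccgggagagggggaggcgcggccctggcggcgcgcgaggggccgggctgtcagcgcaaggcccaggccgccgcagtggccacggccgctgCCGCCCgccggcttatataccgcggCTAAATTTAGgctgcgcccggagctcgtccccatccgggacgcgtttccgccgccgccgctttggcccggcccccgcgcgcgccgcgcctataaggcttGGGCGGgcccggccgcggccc
KLF9, chr9:70414658-70414907, minus strand: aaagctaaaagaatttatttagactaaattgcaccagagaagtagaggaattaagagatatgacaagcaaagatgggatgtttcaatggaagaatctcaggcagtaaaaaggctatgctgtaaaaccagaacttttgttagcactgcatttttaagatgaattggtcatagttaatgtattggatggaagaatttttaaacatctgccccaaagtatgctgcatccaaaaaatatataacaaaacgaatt
The KLF4 window holds TGACG, read on the opposite strand as CGTCA, at -247 to -243 and at -210 to -206 from the gene start, a motif in 21.2% of the 35116 RefSeq windows of this length. It is in 4 of the 13 KLF windows, those of KLF4 and KLF13 and 1 each of KLF5 and KLF11, so the genes with the largest and the smallest SKOV3 ratio both hold it. GGGCGG, found in 42.6% of all windows, occurs in 8 of the 13 windows of the KLF genes, that of KLF9 and some of KLF5 and KLF7 being without it. The MEF2 motif, in 2.8% of windows, was found in KLF2 alone, at -120 to -111, and the full cyclic AMP response element TGACGTCA, in 1.65%, in KLF11 alone, where it overlaps TGACG matches. CACCC, the core of the sites that KLF proteins bind, is in 54.7% of windows and in 6 of the 13, of KLF5, KLF7, KLF11 and KLF13. TATAAA (10.7% of windows) was found for KLF5 alone. The AP-1 motif TGANTCA (6.57% of windows), TGATGNAA, the core of the element bound by ATF4 with C/EBP factors (3.14%), and the NF-kB motif (9.96%) were found in none of the KLF windows. These matches describe letters in the window only. KLF5, KLF7 and KLF11 have more than 1 window each. GC content was 80.0% in the KLF2 window, 69.2% in that of KLF4 and 32.4% in that of KLF9, beside a median of 58.0% over all windows.

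Among the other activators, KLF5, which drives proliferation of epithelial cells such as those of the intestinal crypt, was at 11.8 FPKM in SKOV3 control and 24.1 with YY-15 in SKOV3. In ES2 it was at 0.808 FPKM in the control and 0.685 with YY-15, below the filter in both. Its log2 ratio in SKOV3 was 0.97 [0.97 to 1.10], just under the 2-fold size. The ES2 interval, -0.53 to 0.06, included 0.

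KLF2, a factor of endothelial and lymphocyte quiescence, was at 3.87 FPKM in SKOV3 control, 7.53 in SKOV3 YY-15, 9.54 in ES2 control and 10.4 with YY-15 in ES2. SKOV3 control was thus the low library, and SKOV3 YY-15 stayed below both ES2 libraries. The log2 ratio was 0.81 [0.84 to 1.09] in SKOV3 and 0.11 [0.03 to 0.22] in ES2.

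KLF6, a widely expressed factor known as an activator of the cell cycle inhibitor gene CDKN1A, had the highest FPKM of the 10 in all 4 libraries. It was at 33.0 FPKM in SKOV3 control, 49.4 in SKOV3 YY-15, 14.9 in ES2 control and 15.9 with YY-15 in ES2. Its log2 ratio was 0.57 [0.56 to 0.62] in SKOV3 and 0.09 [0.04 to 0.14] in ES2. KLF7, known for its part in neuronal development, was at 7.40 FPKM in SKOV3 control, 8.94 in SKOV3 YY-15, 4.01 in ES2 control and 3.77 with YY-15 in ES2. Both of its ratios were small, 0.24 [0.22 to 0.33] in SKOV3 and -0.07 [-0.16 to -0.01] in ES2. KLF7 is the only one of the 10 that overlaps other measured genes on its own strand, KLF7-IT1 and MIR2355, so its value is uncertain, although these had at most 12 estimated counts in any library beside at least 2567 for KLF7. On the opposite strand it overlaps MYOSLID, which had between 186 and 344 estimated counts.

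KLF3, the CtBP-recruiting repressor, was at 7.65 FPKM in SKOV3 control, 11.3 in SKOV3 YY-15, 9.88 in ES2 control and 10.2 with YY-15 in ES2. SKOV3 control was the lowest and SKOV3 YY-15 the highest of the 4. The log2 ratio was 0.50 [0.50 to 0.62] in SKOV3 and 0.04 [-0.02 to 0.10] in ES2. Its antisense gene KLF3-AS1 had at most 91 estimated counts in any library.

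Among the SIN3A-binding factors, KLF10, also called TIEG1 for its early induction by TGF-beta, was at 16.9 FPKM in SKOV3 control and 38.2 with YY-15 in SKOV3. In ES2 it was at 10.1 FPKM in the control and 9.27 with YY-15. The log2 ratio was 1.13 [1.13 to 1.23] in SKOV3, with 160 genes higher, and -0.11 [-0.20 to -0.04] in ES2, the lowest ES2 ratio of the 8 KLF genes past the filter there. KLF11, or TIEG2, its closest relative among the 10, was at 6.85 FPKM in SKOV3 control, 9.87 in SKOV3 YY-15, 1.14 in ES2 control and 1.08 with YY-15 in ES2. Its log2 ratio in SKOV3 was 0.47 [0.46 to 0.61], smaller than that of KLF10.

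KLF9, a factor induced by glucocorticoid and thyroid hormones, was the lowest of the 10 in both SKOV3 libraries, at 1.13 FPKM in the control and 2.72 with YY-15. In ES2 it was at 4.54 FPKM in the control and 4.41 with YY-15, so both ES2 libraries were above both SKOV3 libraries. The log2 ratio in SKOV3 was 0.80, and its count interval, 1.10 to 1.44, lay wholly above it because the pseudocount weighs on so low a gene. KLF13, an activator of the chemokine gene CCL5 in T lymphocytes, was at 7.25 FPKM in SKOV3 control, 8.65 in SKOV3 YY-15, 0.727 in ES2 control and 0.834 with YY-15 in ES2. It had the smallest SKOV3 ratio of the 10, 0.23 [0.20 to 0.32].

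**Figure D2:**
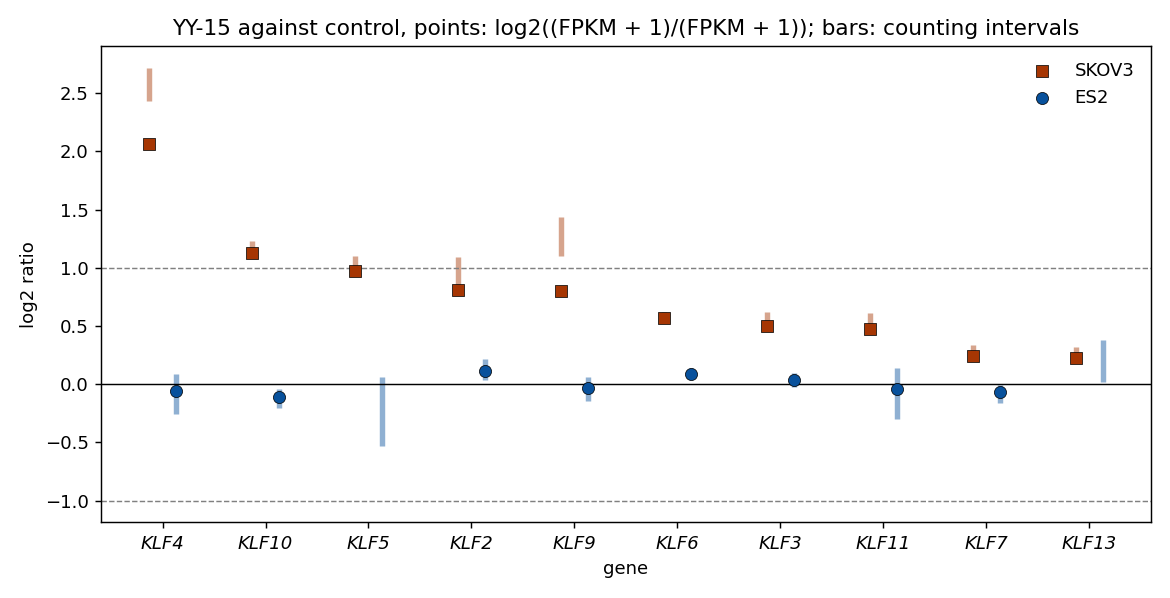
Log2 ratio of YY-15 against control for each KLF gene, ordered by the SKOV3 value (squares SKOV3, circles ES2; bars are exact 95% counting intervals without the pseudocount, so they need not be centred on the points; dashed lines mark 2-fold). SKOV3 points run from 0.23 for KLF13 to 2.06 for KLF4, ES2 points lie between -0.11 and 0.11, and KLF5 and KLF13 have no ES2 point because both ES2 libraries were below 1 FPKM.

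In ES2, where the same question was asked, none of the 8 KLF genes past the filter was 2-fold different in either direction, beside 0.835% of the 12341 genes there. The KLF ratios ran from -0.11 for KLF10 to 0.11 for KLF2, with a median of -0.04 against -0.02 over all genes. Ratios were above 0 for 3 of the 8 and for 45.7% of all genes. Among the 8, the count interval lay above 0 for KLF2 and KLF6, beside 30.2% of all genes, and below 0 for KLF7 and KLF10, beside 38.2%. It included 0 for KLF3, KLF4, KLF9 and KLF11. Of the 2 genes below the filter, KLF13 had an interval above 0 and KLF5 one that included 0. The ES2 ratios of all genes followed the GC content of the longest transcript of each gene (Spearman rho = 0.43 across 12010 genes, which are not independent replicates), which those of SKOV3 did not (rho = 0.01 across 12924 genes). The longest KLF transcripts ranged from 41.5% GC for KLF3 to 65.2% for KLF2, the gene with the highest ES2 ratio. With the trend on GC content and length removed, KLF2 was at -0.01 in ES2 and KLF3 at 0.16, and the SKOV3 ratio of KLF4 was 2.08.

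**Figure D3:**
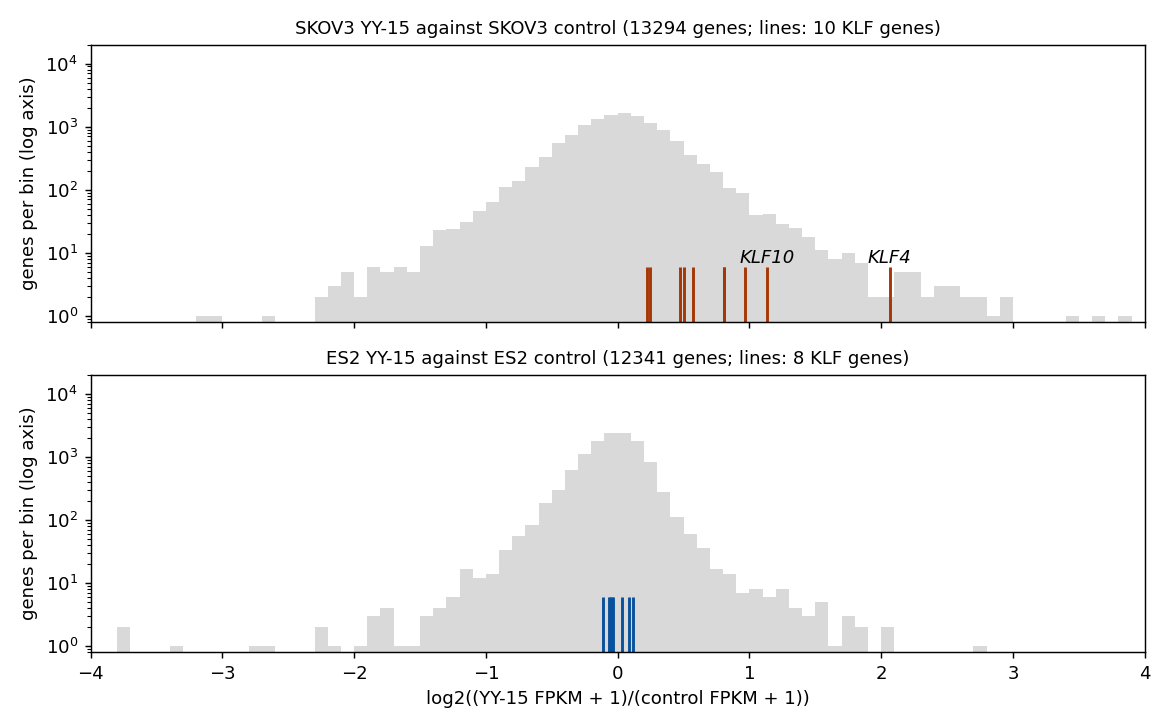
Number of genes per log2 ratio bin of 0.1 (log axis) for YY-15 against control in SKOV3 (13294 genes, top) and ES2 (12341 genes, bottom), with the KLF genes as vertical lines whose height has no meaning. The 10 SKOV3 lines all lie above 0, those of KLF10 and KLF4 beyond 1, and the 8 ES2 lines cluster around 0.

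The SKOV3 ratio exceeded the ES2 ratio for all 8 KLF genes with both values, by 2.12 for KLF4, 1.24 for KLF10, 0.84 for KLF9, 0.70 for KLF2, 0.51 for KLF11, 0.48 for KLF6, 0.47 for KLF3 and 0.31 for KLF7. The same held for 53.7% of the 11028 genes with both ratios. Of the 8, 5 were above 0 in SKOV3 and below 0 in ES2, beside 28.4% of these genes. As all 8 were above 0 in SKOV3, these 5 are simply the KLF genes below 0 in ES2. There, 45.7% of all genes past the filter were above 0. With 1 library per group the difference between the lines was not tested.

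The untreated lines were compared to describe the starting levels. KLF5, KLF6, KLF11 and KLF13 were at least 2-fold higher in SKOV3 control than in ES2 control, beside 16.2% of the 14024 genes past the filter, and KLF2 and KLF9 were at least 2-fold lower, beside 12.5%. The log2 ratios, SKOV3 over ES2, were 2.82 [3.65 to 4.07] for KLF5, 2.26 [3.18 to 3.46] for KLF13, 1.87 [2.42 to 2.75] for KLF11 and 1.09 [1.10 to 1.19] for KLF6. In the other direction they were -1.38 [-2.16 to -1.85] for KLF9 and -1.11 [-1.42 to -1.18] for KLF2. KLF7 (0.75) and KLF10 (0.69) were higher in SKOV3 by less than 2-fold, and KLF3 (-0.33) and KLF4 (-0.21) lower.

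The order of levels within a line therefore differed between the lines. In ES2 control, KLF6 led, followed by KLF10, KLF3, KLF2, KLF9, KLF7, KLF4, KLF11, KLF5 and KLF13. KLF10, KLF3 and KLF2 lay between 9.54 and 10.1 FPKM there, and with no replicates their order cannot be set against a spread. In SKOV3 control the order was KLF6, KLF10, KLF5, KLF3, KLF7, KLF13, KLF11, KLF2, KLF4 and KLF9, with KLF3, KLF7, KLF13 and KLF11 between 6.85 and 7.65 FPKM. In SKOV3 YY-15, KLF4 stood at rank 5, against rank 9 in the control, and KLF6, KLF10 and KLF5 kept ranks 1, 2 and 3. KLF6 made up 33.8% of the summed KLF FPKM of untreated SKOV3 and 28.8% with YY-15, while KLF4 made up 1.83% and 6.21%.

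Between the treated libraries, 7 of the 10 KLF genes were at least 2-fold higher in SKOV3, beside 19.3% of the 14056 genes past the filter, and none was 2-fold lower, beside 12.7%. KLF4 (1.92), KLF10 (1.93) and KLF7 (1.06) joined KLF5 (3.89), KLF13 (2.40), KLF11 (2.39) and KLF6 (1.58). KLF7 was under 2-fold when centred on the median (0.93), with the trend on GC content and length removed (0.77) and with a pseudocount of 5 (0.67). KLF2 (-0.42) and KLF9 (-0.54) were still lower in SKOV3 but no longer by 2-fold, and KLF3 was at 0.14, or -0.13 with the trend on GC content and length removed. These values share their libraries with the comparisons above and add no separate evidence.

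**Figure D4:**
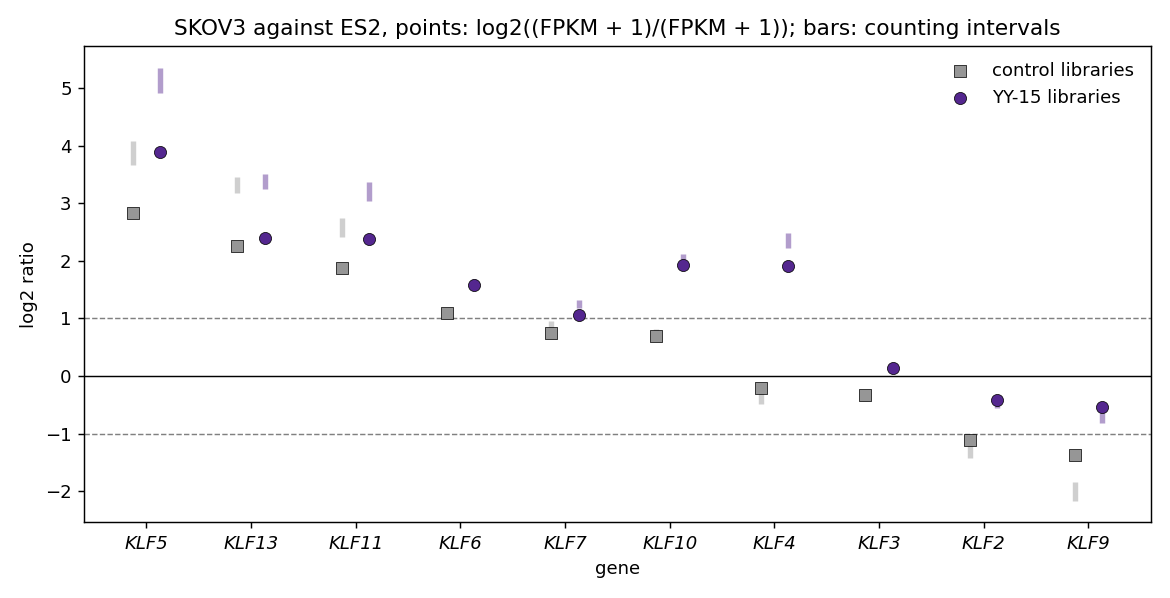
Log2 ratio of SKOV3 against ES2 for each KLF gene in the control libraries (grey squares) and the YY-15 libraries (purple circles), with exact 95% counting intervals as bars and 2-fold as dashed lines. KLF5 lies highest in both (2.82 and 3.89), KLF9 lowest (-1.38 and -0.54), and KLF4 is at -0.21 in the controls and 1.92 in the treated libraries.

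The rest of the family and its partners were described from lists of known genes. Their counts stand beside these shares of all genes past the filter, for YY-15 against control. In SKOV3, 52.7% were above 0, 1.66% were 2-fold higher and 2.97% were 2-fold different in either direction. In ES2, 45.7% were above 0 and 0.835% were 2-fold different. Of 7 other KLF genes, KLF12 and KLF16 passed the filter, and neither was 2-fold different with YY-15. KLF16, a SIN3A-binding relative of KLF9 and KLF13, was at 12.2 FPKM in SKOV3 control, 15.8 in SKOV3 YY-15, 16.5 in ES2 control and 17.9 with YY-15 in ES2, with log2 ratios of 0.35 in SKOV3 and 0.11 in ES2. KLF12, a CtBP-recruiting relative of KLF3, had ratios of 0.05 in SKOV3 and -0.26 in ES2. KLF1, the erythroid factor, was listed at 0 FPKM in all 4 libraries. The related SP factors, which bind GC boxes through the same kind of zinc fingers, had a median ratio of 0.08 over the 5 of 9 past the filter in SKOV3, 4 of them above 0 and none 2-fold different. SP1 (0.13), SP2 (0.12) and SP3 (0.08) were all close to 0 there. Over the 485 other C2H2 zinc finger genes past the filter, the SKOV3 median was 0.04, none was 2-fold higher and 2 were 2-fold lower.

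The 10 corepressors and coactivators that KLF proteins recruit had a median of 0.02 in SKOV3, with 6 above 0, 4 below and none 2-fold different. The deacetylase gene HDAC1 was at 46.3 FPKM in SKOV3 control against 32.0 with YY-15 (-0.52), CTBP2 had a ratio of 0.36, the acetyltransferase gene CREBBP 0.35 and HDAC3 -0.18. Of 8 ubiquitin ligase genes described for KLF proteins, FBXO32 alone was 2-fold different in SKOV3, at 4.54 against 10.1 FPKM (1.01), and the list had 6 above 0, 2 below and a median of 0.25. SMURF1 was at 0.41, SMURF2 at 0.19 and WWP1, a ligase of KLF5, at -0.12 in SKOV3 and -0.37 in ES2. In ES2 the medians of these lists were -0.09 for the corepressors and coactivators, -0.04 for the ligases and -0.20 for the SP factors, with no gene 2-fold different.

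Upstream, the MEK5-ERK5-MEF2 pathway induces KLF2 and KLF4 in endothelial cells. Of its 7 genes 6 passed the filter in SKOV3, 4 were above 0, 2 below and none 2-fold different, with a median of 0.35. MEF2D was at 6.62 against 11.9 FPKM in SKOV3 (0.76), MEF2A at 7.59 against 12.1 (0.60), MAP3K2 had a ratio of 0.15 and MAP3K3 -0.04. MAPK7, the gene of ERK5 itself, was lower in SKOV3, at 4.40 against 2.97 FPKM (-0.44), and had a ratio of 0.05 in ES2. MAP2K5, the gene of MEK5, was higher in SKOV3, at 2.85 against 4.61 FPKM (0.54), and had 0.11 in ES2. All 8 TGF-beta and SMAD genes, the pathway that induces KLF10 and KLF11, were above 0 in SKOV3, beside 52.7% of all genes past the filter. The median was 0.24 and none of the 8 was 2-fold different. They included the receptor gene TGFBR2 (0.59), TGFB1 (0.35), TGFBR1 (0.14) and SMAD7 (0.36), an inhibitor of the pathway that KLF10 is known to repress. In ES2, TGFB1 had 0.31, SMAD7 0.19 and TGFBR2 -0.07, and the medians of both pathways were 0.05 for MEK5-ERK5-MEF2 and -0.01 for TGF-beta and SMAD. Of 5 genes for the glucocorticoid receptor and its targets, a set that KLF9 belongs to by its induction, 4 passed the filter in SKOV3, 3 were above 0, 1 was below 0 and 1 was 2-fold higher, with a median of 0.65. TSC22D3 was at 7.09 FPKM in SKOV3 control against 28.1 with YY-15 (1.85), and at 2.06 against 2.30 in ES2 (0.11). The receptor gene NR3C1 had 0.36 in SKOV3 and -0.10 in ES2, and PER1 had 0.94 and 0.07. FKBP5 was the gene below 0 in SKOV3 (-0.075), with -0.31 in ES2, and ZBTB16 was listed at 0 FPKM in every library. The median over the 4 of 5 past the filter in ES2 was -0.01.

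Of 22 genes described as targets of KLF proteins, 20 passed the filter in SKOV3. In SKOV3, 13 were above 0, beside 52.7% of all genes past the filter, and 7 were below. Of the 20, 3 were 2-fold higher, beside 1.66% of all genes, and 3 were 2-fold lower. Of all genes, 2.97% were 2-fold different in either direction. The median of the list was 0.33. ATF3, a stress-induced factor, was at 0.844 FPKM in SKOV3 control against 6.87 with YY-15 (2.09), CDKN1A at 4.51 against 16.5 (1.67) and MYC at 13.7 against 33.5 (1.23). S1PR1, a receptor gene activated by KLF2 in T lymphocytes, was lower at 9.12 against 3.10 FPKM (-1.30). FGFBP1 (-1.19), described as a KLF5 target, and the cyclin gene CCNB1, at 84.3 against 41.5 FPKM, were the other 2 lower by 2-fold, named after their values were seen. In ES2, 16 passed, 10 were above 0, beside 45.7% of all genes, and none was 2-fold different, with a median of 0.05.

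Profiles over the 4 libraries were compared by the distance between log2(FPKM + 1) values, each gene centred on its own mean, among 8430 genes that reached 5 FPKM in any library. The nearest to KLF4, the gene of the 10 with the highest SKOV3 ratio, were SESN2 (distance 0.07), PHLDA1 (0.26), TRIB3 (0.39), GADD45A (0.43) and PSAT1 (0.45). SESN2 was at 4.36 FPKM in SKOV3 control, 20.3 in SKOV3 YY-15, 4.86 in ES2 control and 4.88 with YY-15 in ES2, so it too was high in SKOV3 YY-15 alone. Nearest to KLF13, with the lowest SKOV3 ratio, were IFITM3 (0.03), APLP1 (0.08), COL4A2 (0.10), STAT3 (0.10) and ITM2B (0.12), each higher in both SKOV3 libraries than in both ES2 libraries. With 4 libraries such likeness is a description only.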

How the data were processed

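Poly(A)-selected RNA from 4 libraries, 1 per group, was sequenced from both ends with a strand-marking protocol, per the labels' protocols. The submitters' processing notes list StringTie 2.1.6, HISAT2 2.2.1, cutadapt 1.9, edgeR and DESeq2 without saying what each did. They also list mm10, a mouse build, but every gene identifier is human and 99.8% of the 35576 shared with GENCODE 29 lay at the same gene on GRCh38, the build used here. The authors' table holds FPKM and counts, per the file headers. The deposited counts are treated as estimated counts, because 210 to 229 genes per library had a count of 1 beside an FPKM below 0.001. Each column was assigned to its sample by the line and the treatment in its heading.

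The log2 ratio of FPKM with a pseudocount of 1 was computed where a gene reached an FPKM of 1 in either library compared. Exact Clopper-Pearson 95% intervals came from the estimated counts and library totals, between 62522202 and 67431058. PCR reads are not independent molecules, so these intervals hold no more than counting error. The 10 genes and all lists were chosen with earlier results of these data known. From each list the text names up to 4 genes by mean absolute ratio over both lines, at an FPKM of 5 or more in any library, with a ratio that failed the filter taken as 0; other genes were named after their values were seen. Likeness was sought for the genes with the highest and lowest SKOV3 ratio. The comparison with other C2H2 zinc finger genes was added after the data were seen. On simulated counts, 50 of 50 genes made 4-fold higher passed 2-fold in SKOV3 (12805 genes), as did 50 of 50 in ES2 (12132 genes). The genes changed had a mean FPKM of 5 or more, and the simulated counts held counting error alone. The simulation therefore checks the calculation and says nothing of changes near 2-fold, of lower genes or of how cultures vary. Alternatives were pseudocounts of 0.1 and 5, no filter, a filter at an FPKM of 5, rescaling each library's FPKM or estimated counts to 1000000, centring on the median, sizes of 1.5-fold and 3-fold and, added after seeing the data, removal of the trend on GC content and length by local regression (span 0.3). Promoter sequences came from RefSeq on GRCh38.p14, and both strands were searched. Calculations used Python 3.11.15, numpy 2.4.6, pandas 2.3.3, scipy 1.17.1 and statsmodels 0.14.6.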

Additional observations from a re-analysis of the deposited data

Results flagged for a closer look

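The ratio of YY-15 to control was above 0 in SKOV3 and below 0 in ES2 for 5 of the 8 KLF genes with both ratios, which is what singled them out, and for 28.4% of the 11028 genes with both. As all 8 were above 0 in SKOV3, these 5 are simply the KLF genes below 0 in ES2. There, 45.7% of all genes past the filter were above 0. The difference, SKOV3 minus ES2 on the log2 scale, was 2.12 for KLF4, 1.24 for KLF10, 0.84 for KLF9, 0.51 for KLF11 and 0.31 for KLF7. It was not tested, since each group held 1 library. The ES2 count intervals of KLF4, KLF9 and KLF11 included 0. Those of KLF7 and KLF10 lay below 0, as did those of 38.2% of all genes past the filter in ES2. These intervals hold counting error only, so the direction in ES2 was not established for any of the 5. With the trend on GC content and length removed, KLF7 was at 0.04 and KLF9 at 0.00 in ES2.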

How the results depend on the processing

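All 10 KLF genes had a ratio above 0 in SKOV3 under every setting tried in which they passed the filter, 89 of 89 values over 9 settings, and the KLF median there lay between 0.43 and 0.80. The count at 2-fold depended on the setting. It was 2 (KLF4 and KLF10), and became 4, adding KLF5 and KLF9, with a pseudocount of 0.1, with FPKM rescaled to 1000000 and with counts scaled to 1000000. It was 1 (KLF4) with a pseudocount of 5 and at 3-fold, and 5 at 1.5-fold. The cause of the changes with the rescalings was not tested, since a rescaling moves the library scaling and the pseudocount's weight together. In ES2 the count was 0 under every alternative. Between the control libraries it was 6, but 2 with a pseudocount of 5, 3 at 3-fold, 5 with the filter at an FPKM of 5 (without KLF9) and 8 at 1.5-fold (adding KLF7 and KLF10). Between the treated libraries it was 7, 6 without KLF7 when centred on the median, with the trend removed and with a pseudocount of 5, and 5 at 3-fold, without KLF6 and KLF7. In ES2 the signs of KLF2, KLF3 and KLF7 turned under some settings, with ranges of -0.01 to 0.14, -0.01 to 0.16 and -0.12 to 0.04. Rescaling FPKM to 1000000 moved the median of all genes from 0.13 to 0.42 between the treated libraries and from 0.07 to 0.21 between the controls. The sign of KLF3 between the treated libraries also turned (-0.13 to 0.34). No paired analysis was possible because each group holds 1 library. Depth limits KLF4, KLF5, KLF9, KLF11 and KLF13 most, whose lowest estimated counts lay between 179 and 469.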
